A study of Mus musculus with 10 samples.

Results

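The stromal growth factors that support B lymphoid cells were followed in irradiated mouse embryonic fibroblasts (MEFs), the layer on which Bcr/Abl leukemia cells were kept alive during drug treatment. The 10 genes were Cxcl12, Il7, Kitl, Flt3l, Tslp, Vcam1, Csf1, Fgf7, Tnfsf13b and Il15, taken from the 19938 genes that had a probeset of their own. Each was read from the probeset with a single gene symbol and the highest mean over the 10 arrays, and each of the 10 had exactly 1 such probeset. RNA of the MEFs was hybridized to Affymetrix mouse arrays, and all values are log2 probeset signals. The wild-type MEFs of every group had received 1000 rad and were harvested on day 9. By the labels the medium contained 10 ng/ml murine IL-3, while the study names a lower concentration for the medium of the leukemia cells. MEFs + ALL + nilotinib (3 arrays) lay below 8093 ALL cells, a B cell precursor acute lymphoblastic leukemia line from a Bcr/Abl transgenic mouse (preB in the labels, pro-B in the study), with 16 nM nilotinib, an inhibitor of the Abl kinase. MEFs + ALL + DMSO (1 array) lay below the same cells with vehicle, MEFs + nilotinib (3 arrays) received the drug without ALL cells, and MEFs + DMSO (3 arrays) received vehicle alone. In the groups with ALL cells a Transwell membrane with 0.4 µM pores separated them from the MEFs, so factors could pass while cell contact was prevented. No membrane is recorded for MEFs + nilotinib and MEFs + DMSO. Presence of ALL cells and presence of a membrane therefore cannot be told apart in comparisons with those groups. All ALL cells came from a single line, and the MEF triplicates were separate dishes, so the p-values measure the spread between dishes.

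B cell precursors grow in contact with stromal cells that feed them. CXCL12 holds the precursors in the niche through CXCR4, and IL-7 drives their growth and survival in mice through the IL-7 receptor, which TSLP shares in part. Kit ligand and FLT3 ligand act on earlier progenitors, VCAM1 anchors cells through an integrin that contains the Itga4 chain, and BAFF (Tnfsf13b) and IL-15 sustain later B cells and natural killer cells. CSF1 and FGF7 are fibroblast products that act mainly on macrophages and on epithelial cells. Whether MEFs below drug-treated leukemia cells carry more or less of these transcripts is the question the 4 groups address.

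Transcripts of Csf1 and Fgf7 rose in MEFs + ALL + nilotinib relative to MEFs + DMSO, by 0.36 ± 0.056 and 0.54 ± 0.082 (log2, standard error), and no member was lower past the threshold. The test was limma, a linear model of the group means whose p-values are adjusted over all probesets. These are 2 of 10 members higher with an adjusted p under 0.05, while 0.503% of all 35557 probesets were higher and 0.627% moved in either direction. At an unadjusted p under 0.05 there were 4 of 10 members and 16.2% of probesets. The count was not particular to the members. Of 12 fibroblast markers 2 were likewise higher with an adjusted p under 0.05 and 0 lower, with 6 at an unadjusted p under 0.05. Against MEFs + nilotinib 0 of 10 members passed by limma (0.186% of probesets did), with 5 of 10 at an unadjusted p under 0.05 against 9.27% of probesets. For MEFs + nilotinib over MEFs + DMSO 0 of 10 members passed by limma, as did 0 of 35557 probesets (0%), with 1 member at an unadjusted p under 0.05 against 11.2% of probesets. The comparisons share arrays, and their values are given side by side only. Over the 10 members the median log2 difference was 0.15 for MEFs + ALL + nilotinib over MEFs + DMSO, where that of all probesets was -0.0042. It was 0.17 over MEFs + nilotinib (all probesets -0.0067) and 0.12 for MEFs + nilotinib over MEFs + DMSO (all probesets 0.0025).

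**Figure D1:**
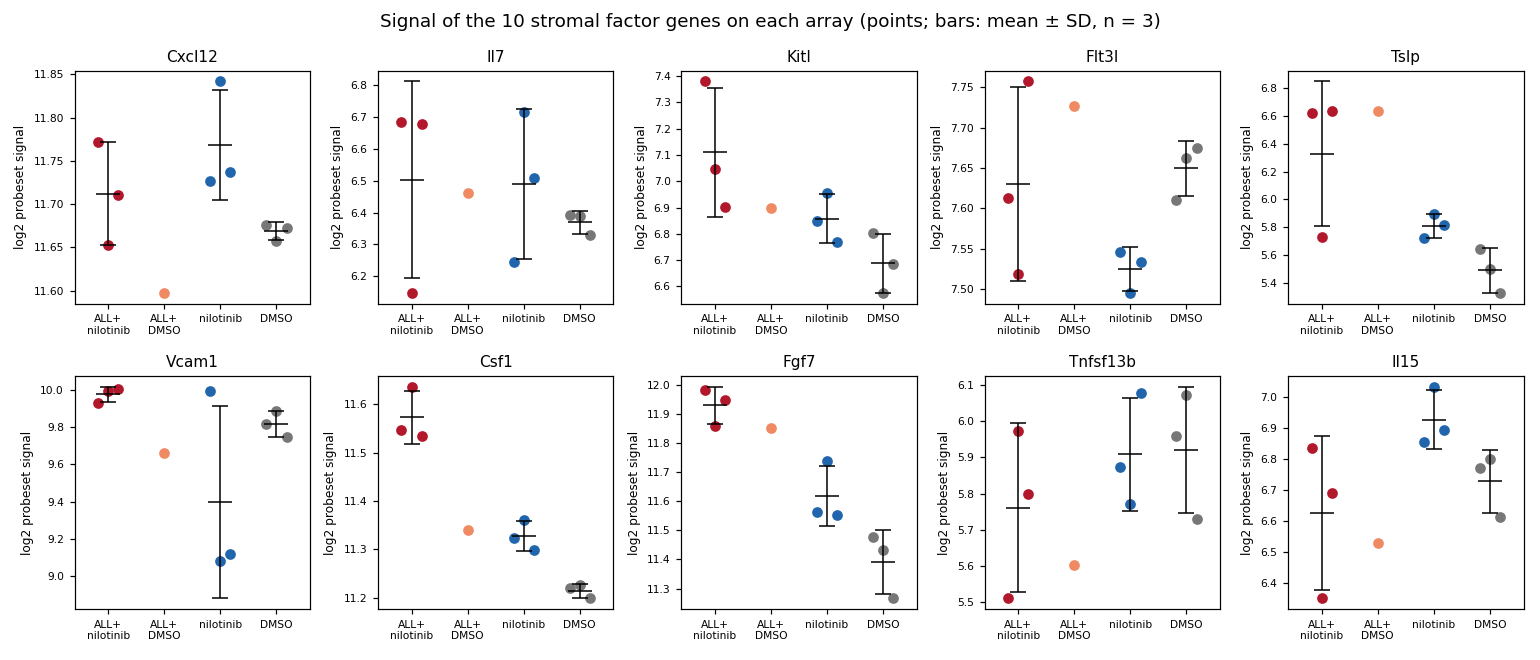
Log2 probeset signal (y axis, a range of its own in each panel) of the 10 genes on each array (points), by group along the x axis, with mean ± SD for the groups of 3. Csf1 and Fgf7 lie highest on the 3 MEFs + ALL + nilotinib arrays, Tslp has 1 low array in that group, and Vcam1 splits within MEFs + nilotinib.

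The MEFs + ALL + DMSO array stood apart from the others and carried transcripts of lymphoid cells. On that array the 14 measured genes of a pro-B and B cell list summed to a linear signal of 5847, against 1336 to 1458 in MEFs + ALL + nilotinib, 1316 to 1388 in MEFs + nilotinib and 1358 to 1425 in MEFs + DMSO. Of these 14 genes 10 passed the test against MEFs + DMSO, all of them higher, and so did 11 of 12 genes of a pan-leukocyte list. Of all probesets 6.67% were higher past the threshold on that array. For MEFs + ALL + nilotinib over MEFs + DMSO 0 of 14 pro-B and B cell genes and 1 of 12 pan-leukocyte genes passed. Of all probesets 0.627% passed there. The pan-leukocyte genes summed to 5175 to 5917 in MEFs + ALL + nilotinib, 14271 on the MEFs + ALL + DMSO array, 4422 to 5241 in MEFs + nilotinib and 4471 to 4942 in MEFs + DMSO. Their sum was thus higher on every array of MEFs + ALL + nilotinib than on any of MEFs + DMSO. By gene, 7 of the 12 were higher and 5 lower there, with a median log2 difference of 0.032 and a highest of 0.74. Of the pro-B and B cell genes 3 were higher and 11 lower, with a median of -0.0998. Csf1 and Fgf7 passed in the same comparison, and the part of the pan-leukocyte sum in that result was not tested. Fibroblast markers (12 genes) summed to 51536 to 53493 in MEFs + ALL + nilotinib, 46562 on the MEFs + ALL + DMSO array, 47054 to 53919 in MEFs + nilotinib and 54336 to 55814 in MEFs + DMSO. Macrophage markers (12 genes) summed to 6918 to 8433 over all 10 arrays, with 0 of 12 passing in the 3 comparisons between groups of 3 arrays. In bulk RNA, fewer cells of a type and less RNA per cell cannot be told apart.

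Among the fibroblast-derived factors, Fgf7, also called keratinocyte growth factor, had log2 signals of 11.98, 11.86 and 11.95 in MEFs + ALL + nilotinib, 11.56, 11.74 and 11.55 in MEFs + nilotinib, and 11.48, 11.43 and 11.27 in MEFs + DMSO. All 3 arrays of MEFs + ALL + nilotinib lay above all 6 arrays without ALL cells, and the lowest MEFs + nilotinib array lay above the highest MEFs + DMSO array. The group means were 11.93 ± 0.064, 11.62 ± 0.10 and 11.39 ± 0.11 in the same order (SD, n = 3 each). MEFs + ALL + nilotinib exceeded MEFs + DMSO 1.45-fold in arithmetic means (limma adjusted p = 0.037, 95% interval of the log2 difference 0.35 to 0.73). The 1.24-fold difference from MEFs + nilotinib did not pass (log2 0.31, interval 0.12 to 0.50, adjusted p = 0.28), nor did the 1.17-fold difference of MEFs + nilotinib over MEFs + DMSO (log2 0.23, adjusted p = 0.40). The last of these is also the test of whether the first pair of differences differ, so a stronger response against MEFs + DMSO than against MEFs + nilotinib was not shown.

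Csf1 encodes macrophage colony-stimulating factor, the ligand of Csf1r. It had log2 signals of 11.55, 11.64 and 11.54 in MEFs + ALL + nilotinib, 11.32, 11.36 and 11.30 in MEFs + nilotinib, and 11.22, 11.23 and 11.20 in MEFs + DMSO. The 3 groups did not overlap, and Csf1 had the narrowest spread of the 10 members, with a within-group SD of 0.038 where the median probeset had 0.13. MEFs + ALL + nilotinib exceeded MEFs + DMSO 1.28-fold (log2 0.36, interval 0.23 to 0.49, limma adjusted p = 0.039). Against MEFs + nilotinib the difference was 1.19-fold (log2 0.24, interval 0.12 to 0.37, adjusted p = 0.21). MEFs + nilotinib over MEFs + DMSO gave 1.08-fold (log2 0.11, adjusted p = 0.48).

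Set against all 6 arrays without ALL cells, Fgf7 was higher by 0.42 and Csf1 by 0.30 (log2, limma adjusted p = 0.047 and 0.042), and 0.61% of probesets passed that comparison. In a two-sided exact permutation test of 3 against 6 arrays both reached p = 0.0238, the smallest p that design allows. That value follows from the 3 arrays lying above all 6, as described above, and is no separate evidence. The test pools MEFs + nilotinib with MEFs + DMSO, although neither Fgf7 nor Csf1 overlapped between these groups. Its p-values are unadjusted, and no share of all probesets is given for it. Kitl gave p = 0.0476 in the same two-sided exact permutation test. For the other 7 of the 10 members tested in this way the exact p was between 0.0714 and 0.929.

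Both calls rest on the 9 arrays of the groups of 3. Fgf7 and Csf1 kept positive differences from MEFs + DMSO whichever array was left out, between 0.48 and 0.58 for Fgf7 and between 0.33 and 0.38 for Csf1. With 1 array of MEFs + ALL + nilotinib, MEFs + nilotinib or MEFs + DMSO left out, the adjusted p ran from 0.048 to 0.15 for Fgf7 and from 0.053 to 0.17 for Csf1, and the only call kept was Fgf7 without MEFs + nilotinib replicate 1. Leaving out the MEFs + ALL + DMSO array kept both calls, with adjusted p of 0.037 and 0.039. With the compared groups alone in the fit they became 0.081 and 0.091, and with a replicate block 0.13 and 0.14.

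**Figure D2:**
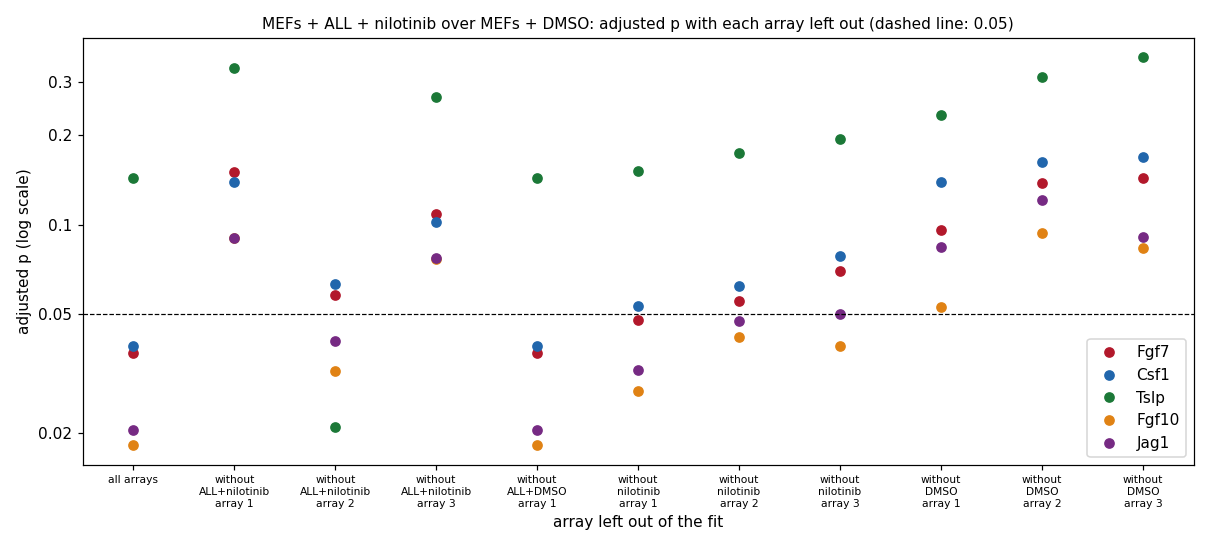
Adjusted p (y axis, log scale) for MEFs + ALL + nilotinib over MEFs + DMSO with all 10 arrays and with each array left out (x axis), for Fgf7, Csf1, Tslp, Fgf10 and Jag1; the dashed line is 0.05. Most points of Fgf7 and Csf1 lie between 0.05 and 0.17, and Tslp falls below the line only without MEFs + ALL + nilotinib replicate 2.

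The start regions of these genes are shown because they were the members whose transcripts differed together. They are RefSeq sequences (GRCm38.p6) that run from 250 bases before to 50 bases after the transcript start, 5′ to 3′, with the GC box letters GGGCGG and the CCAAT box letters in capitals where they occur on either strand. The table held such a region for 6 of the 10 members.
Fgf7, chr2:126034408-126034707, plus strand: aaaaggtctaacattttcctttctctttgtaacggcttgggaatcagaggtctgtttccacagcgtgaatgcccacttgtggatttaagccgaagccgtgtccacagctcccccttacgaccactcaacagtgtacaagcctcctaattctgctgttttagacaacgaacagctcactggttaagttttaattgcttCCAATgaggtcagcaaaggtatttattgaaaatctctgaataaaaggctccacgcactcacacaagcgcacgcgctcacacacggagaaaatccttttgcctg
Csf1, chr3:107760420-107760719, minus strand: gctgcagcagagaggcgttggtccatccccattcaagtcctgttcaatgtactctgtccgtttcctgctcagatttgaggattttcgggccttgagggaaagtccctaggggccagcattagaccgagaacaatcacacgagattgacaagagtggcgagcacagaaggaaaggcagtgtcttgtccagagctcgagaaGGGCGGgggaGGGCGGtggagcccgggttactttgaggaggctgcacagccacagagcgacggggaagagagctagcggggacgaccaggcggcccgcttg

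Of the letters searched on both strands, the Fgf7 region held 1 CCAAT box and the Csf1 region held 2 GC boxes. Among 32851 RefSeq regions of the same length 37.4% held a CCAAT box and 35.7% a GC box. Neither region held the TATA box letters TATAAA (13.6% of all regions) or the AP-1 letters TGANTCA (7.81%), and the regions had no searched motif in common. Fgf7 had 45.7% G and C and Csf1 58.7%, where the median region had 52.7%.

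Among the lymphoid cytokines, Tslp had the largest difference of the 10 members over MEFs + DMSO and the widest within-group SD. Its log2 signals were 6.62, 5.73 and 6.64 in MEFs + ALL + nilotinib, 6.64 on the MEFs + ALL + DMSO array, 5.72, 5.90 and 5.81 in MEFs + nilotinib, and 5.64, 5.50 and 5.32 in MEFs + DMSO. Replicate 2 of MEFs + ALL + nilotinib lay inside the range of MEFs + nilotinib, while the other 2 lay near the MEFs + ALL + DMSO array. The log2 difference from MEFs + DMSO was 0.84 ± 0.23 (standard error; 1.86-fold in arithmetic means, limma adjusted p = 0.14, interval 0.32 to 1.36), and without replicate 2 it was 1.14 (adjusted p = 0.021). With array weights, which lower the part of less consistent arrays, it was 1.05 (adjusted p = 0.012). Against MEFs + nilotinib it was 0.52 (adjusted p = 0.54), and 0.82 without that array (adjusted p = 0.053). The probeset is dim. Its mean of 5.95 exceeded that of 89.7% of 1027 olfactory receptor genes, used here as a gauge of background since MEFs are not known to use them and probesets differ in affinity.

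Kitl, whose product binds the receptor Kit, gave 7.38, 7.05 and 6.90 in MEFs + ALL + nilotinib, 6.85, 6.95 and 6.77 in MEFs + nilotinib, and 6.80, 6.58 and 6.68 in MEFs + DMSO. The first of these groups lay above the last on every array and overlapped MEFs + nilotinib. The log2 difference was 0.42 over MEFs + DMSO (interval 0.14 to 0.71, limma adjusted p = 0.17) and 0.25 over MEFs + nilotinib (interval -0.031 to 0.54, adjusted p = 0.58). The level on the MEFs + ALL + DMSO array, 6.90, equalled the lowest of MEFs + ALL + nilotinib to 2 decimals.

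Il7, the growth factor of mouse B cell precursors, gave 6.69, 6.15 and 6.68 in MEFs + ALL + nilotinib, 6.24, 6.72 and 6.51 in MEFs + nilotinib, and 6.39, 6.39 and 6.33 in MEFs + DMSO. All 3 groups overlapped, and the log2 differences of 0.13 over MEFs + DMSO (interval -0.24 to 0.51) and 0.014 over MEFs + nilotinib (interval -0.36 to 0.39) were smaller than the within-group SD of 0.23. Its mean of 6.46 lay just above the 95th percentile of the olfactory receptor genes, 6.34, so this probeset too is dim. Flt3l, the ligand of Flt3, gave 7.61, 7.52 and 7.76 in MEFs + ALL + nilotinib, 7.55, 7.49 and 7.53 in MEFs + nilotinib, and 7.61, 7.66 and 7.68 in MEFs + DMSO. Its levels differed by little, with a log2 difference of -0.020 from MEFs + DMSO (interval -0.18 to 0.14) and 0.11 from MEFs + nilotinib (interval -0.058 to 0.27). MEFs + nilotinib lay below MEFs + DMSO on every array, by 0.12 (limma adjusted p = 0.54).

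Cxcl12, the chemokine that retains B cell precursors in the marrow, had the narrower spread of the 2 retention factors, with a within-group SD of 0.051 against 0.30 for Vcam1. Its log2 signals were 11.77, 11.65 and 11.71 in MEFs + ALL + nilotinib, 11.60 on the MEFs + ALL + DMSO array, 11.73, 11.84 and 11.74 in MEFs + nilotinib, and 11.68, 11.66 and 11.67 in MEFs + DMSO. The difference over MEFs + DMSO was 0.043 (interval -0.096 to 0.18, limma adjusted p = 0.77) and that over MEFs + nilotinib was -0.057 (interval -0.20 to 0.083, adjusted p = 0.80). Both intervals stay within 0.20 of no change.

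Vcam1, the adhesion molecule of the stroma, gave 9.93, 9.99 and 10.01 in MEFs + ALL + nilotinib, 9.66 on the MEFs + ALL + DMSO array, 10.00, 9.08 and 9.12 in MEFs + nilotinib, and 9.82, 9.89 and 9.75 in MEFs + DMSO. Replicate 1 of MEFs + nilotinib lay within the range of MEFs + ALL + nilotinib, and the other 2 lay below every other array. The log2 difference of MEFs + ALL + nilotinib over MEFs + nilotinib was 0.58 with all arrays (interval 0.089 to 1.07, limma adjusted p = 0.45) and 0.88 without that replicate (adjusted p = 0.014). MEFs + nilotinib over MEFs + DMSO was -0.42 with all arrays (adjusted p = 0.50) and -0.72 without it (adjusted p = 0.0496). Over MEFs + DMSO the difference was 0.16 (interval -0.33 to 0.65), although the groups did not overlap. The fibroblast marker sum moved with Vcam1 within MEFs + nilotinib, at 53919 in replicate 1, 47054 in replicate 2 and 49967 in replicate 3, and its part in the result was not tested.

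Neither survival cytokine had a higher mean in MEFs + ALL + nilotinib compared with the groups without ALL cells. Tnfsf13b (BAFF) gave 5.51, 5.97 and 5.80 in MEFs + ALL + nilotinib, 5.60 on the MEFs + ALL + DMSO array, 5.87, 5.77 and 6.08 in MEFs + nilotinib, and 5.96, 6.07 and 5.73 in MEFs + DMSO. The groups overlapped throughout, with log2 differences of -0.16 from MEFs + DMSO (interval -0.48 to 0.16) and -0.15 from MEFs + nilotinib (interval -0.47 to 0.18), and its mean of 5.84 exceeded that of only 87.3% of olfactory receptor genes. Il15 gave 6.84, 6.35 and 6.69 in MEFs + ALL + nilotinib, 6.53 on the MEFs + ALL + DMSO array, 6.86, 7.03 and 6.89 in MEFs + nilotinib, and 6.77, 6.80 and 6.61 in MEFs + DMSO. MEFs + ALL + nilotinib lay below MEFs + nilotinib on every array, with a log2 difference of -0.30 (interval -0.59 to -0.018) that did not pass (limma adjusted p = 0.51), and overlapped MEFs + DMSO.

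**Figure D3:**
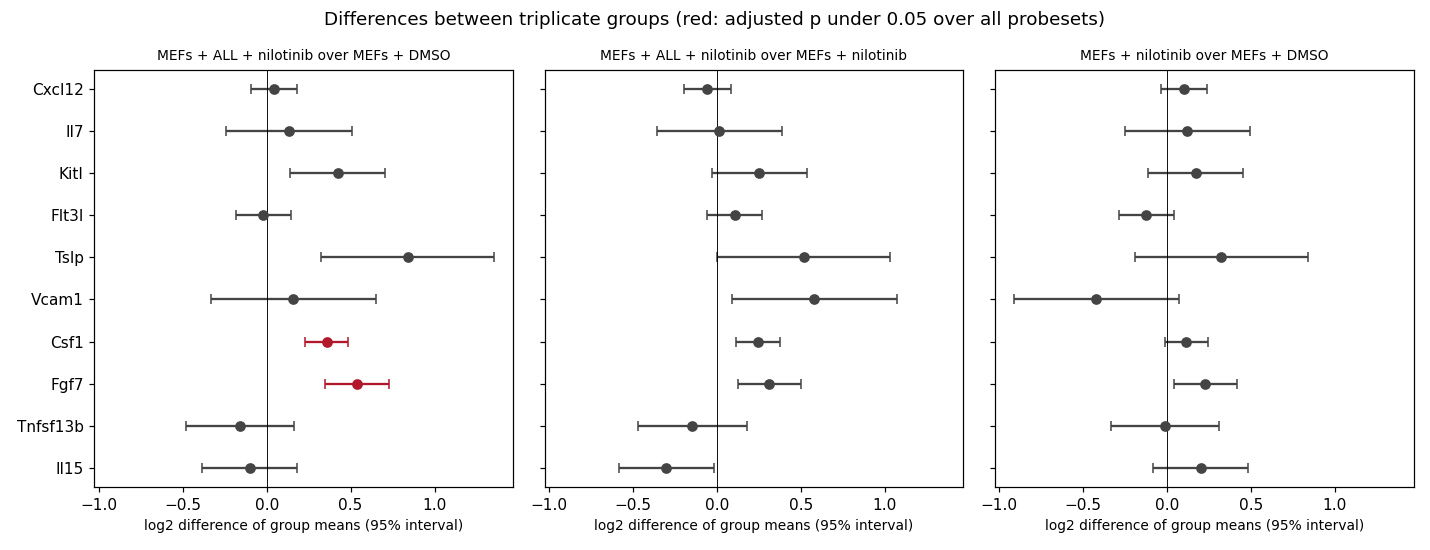
Log2 difference of group means with its 95% interval (x axis) for the 10 genes (y axis) in the 3 comparisons between groups of 3 arrays, with the comparisons side by side; red marks an adjusted p under 0.05. Csf1 and Fgf7 over MEFs + DMSO are the 2 red points, and the intervals of Cxcl12 are among the narrowest.

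Counted by overlap, 5 of 10 members were higher on every array of MEFs + ALL + nilotinib than on any of MEFs + DMSO (Csf1, Fgf7, Kitl, Tslp and Vcam1), where 14.1% of probesets were, and 0 were lower on every array (10.6%). Against MEFs + nilotinib 2 were higher (Csf1 and Fgf7; 7.8% of probesets) and 1 lower (Il15; 6.62%). For MEFs + nilotinib over MEFs + DMSO 5 were higher (Csf1, Fgf7, Tslp, Cxcl12 and Il15; 13.6%) and 1 lower (Flt3l; 7.05%). Replicate 2 of MEFs + ALL + nilotinib was the lowest of its group for 6 of 10 members, replicate 2 of MEFs + nilotinib the highest for 7 and replicate 3 of MEFs + DMSO the lowest for 7. The spread of the members differed widely, with within-group SDs of 0.038 for Csf1 and 0.051 for Cxcl12 against 0.30 for Vcam1 and 0.32 for Tslp, both wider than that of 89.0% of probesets or more.

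MEFs + ALL + DMSO was a single array with lymphoid transcripts, so its comparison borrows the spread of the other groups and has no replicate check. Fgf7 was at 11.85 on that array, just below the lowest array of MEFs + ALL + nilotinib and above all arrays without ALL cells. It exceeded MEFs + DMSO by 0.46 (log2, interval 0.19 to 0.72, limma adjusted p = 0.043), the only one of 10 members to pass, where 6.67% of probesets were higher past the threshold and 10.3% moved. Fgf7 did not pass there after quantile normalization, after median centring or with the compared groups alone in the fit (adjusted p = 0.086, 0.054 and 0.091). Tslp was 1.15 higher (adjusted p = 0.057) and Csf1, at 11.34, was 0.12 higher (adjusted p = 0.35). The median difference over the members was 0.085, where that of all probesets was -0.067. MEFs + ALL + nilotinib over MEFs + ALL + DMSO passed for 0 of 10 members by limma (4.34% of probesets), with 1 at an unadjusted p under 0.05 (17.7% of probesets), and Csf1 differed by 0.23 (interval 0.052 to 0.42, adjusted p = 0.18). The interaction of ALL cells and nilotinib passed for 0 of 10 members (3.95% of probesets), with 0 at an unadjusted p under 0.05 (19.5%). The lymphoid signal of the array stands beside these values, and its part in them was not tested.

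Among 28 measured genes of a wider list of stromal support factors, 1 rose and 1 fell for MEFs + ALL + nilotinib over MEFs + DMSO (0.627% of all probesets passed), and likewise over MEFs + nilotinib (0.186%). The list's median log2 difference was 0.040 and 0.032 in these comparisons, and 0 of 28 passed by limma for MEFs + nilotinib over MEFs + DMSO, with 3 at an unadjusted p under 0.05 (11.2% of all probesets). On the single MEFs + ALL + DMSO array 3 of the 28 were higher and 6 lower past the threshold relative to MEFs + DMSO, where 10.3% of all probesets passed. The gene that rose in both was Fgf10, which like Fgf7 is a ligand of the epithelial form of Fgfr2. Fgf10 had log2 signals of 8.37, 8.23 and 8.33 in MEFs + ALL + nilotinib, 8.17 on the MEFs + ALL + DMSO array, 7.78, 7.59 and 7.56 in MEFs + nilotinib, and 7.65, 7.56 and 7.41 in MEFs + DMSO. Every array with ALL cells lay above every array without them. The differences were 0.77 over MEFs + DMSO (interval 0.56 to 0.97, adjusted p = 0.018) and 0.67 over MEFs + nilotinib (interval 0.47 to 0.87, adjusted p = 0.038), with 0.63 for MEFs + ALL + DMSO over MEFs + DMSO (adjusted p = 0.016).

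Jag1, a ligand of Notch receptors, fell in both comparisons. It gave 10.10, 10.09 and 10.13 in MEFs + ALL + nilotinib, 9.89 on the MEFs + ALL + DMSO array, 10.49, 10.51 and 10.51 in MEFs + nilotinib, and 10.58, 10.55 and 10.50 in MEFs + DMSO. The arrays with ALL cells lay below all 6 without them. The difference was -0.44 over MEFs + DMSO (interval -0.56 to -0.32, limma adjusted p = 0.021) and -0.40 over MEFs + nilotinib (interval -0.52 to -0.27, adjusted p = 0.040). With 1 array of the groups of 3 left out, Fgf10 over MEFs + DMSO had a limma adjusted p of 0.028 to 0.093. That of Jag1 ran from 0.033 to 0.12 there. Over MEFs + nilotinib the ranges were 0.056 to 0.18 and 0.075 to 0.19, so no such fit kept either call. After median centring Jag1 over MEFs + nilotinib did not pass (adjusted p = 0.061). With a replicate block or with the compared groups alone neither gene passed in either comparison, with adjusted p between 0.059 and 0.26.

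The receptors of the members were measured in the same RNA. Of 15 measured receptor genes 0 passed by limma in the 3 comparisons between groups of 3 arrays, with 5 at an unadjusted p under 0.05 for MEFs + ALL + nilotinib over MEFs + DMSO (16.2% of all probesets), 3 over MEFs + nilotinib (9.27%) and 6 for MEFs + nilotinib over MEFs + DMSO (11.2%). Their median log2 difference for MEFs + ALL + nilotinib over MEFs + DMSO was -0.14. Fgfr2, the receptor of FGF7, was at 8.76, 8.86 and 8.95 in MEFs + ALL + nilotinib, 8.98, 8.59 and 8.58 in MEFs + nilotinib, and 9.05, 9.07 and 8.91 in MEFs + DMSO (difference over MEFs + DMSO -0.15, adjusted p = 0.55). Csf1r differed by -0.14 from MEFs + DMSO (adjusted p = 0.34), and its signals of 8.43 to 8.52 in MEFs + ALL + nilotinib lay below the 8.54 to 8.66 of MEFs + DMSO. The widest difference was that of Itga4, a chain of the integrin that binds VCAM1, at 8.80, 8.48 and 8.88 in MEFs + ALL + nilotinib, 9.39 on the MEFs + ALL + DMSO array, 9.19, 9.38 and 9.37 in MEFs + nilotinib, and 9.29, 9.20 and 9.16 in MEFs + DMSO. MEFs + ALL + nilotinib lay below all 7 other arrays, and the differences of -0.50 over MEFs + DMSO and -0.59 over MEFs + nilotinib did not pass (adjusted p = 0.095 and 0.12).

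Several lymphoid receptors among them stood out on the MEFs + ALL + DMSO array. Cxcr4 was at 10.94 there, against 7.83 to 7.91 in MEFs + ALL + nilotinib, 8.07 to 8.33 in MEFs + nilotinib and 8.16 to 8.25 in MEFs + DMSO. Il7r was at 8.46, against 5.45 to 5.61 in MEFs + ALL + nilotinib, 5.44 to 5.62 in MEFs + nilotinib and 5.77 to 5.96 in MEFs + DMSO. Flt3 was at 7.92, against 5.91 to 6.41 in MEFs + ALL + nilotinib, 6.29 to 6.52 in MEFs + nilotinib and 6.11 to 6.37 in MEFs + DMSO. These 3 receptors, for CXCL12, IL-7 and FLT3 ligand, exceeded MEFs + DMSO by 2.74, 2.62 and 1.72 (log2; limma adjusted p = 2.65e-06, 3.64e-06 and 0.000812) on the array that carries the pro-B cell transcripts. Kit, the receptor of Kit ligand, was at 6.47 on that array and differed from MEFs + DMSO by -0.029 (adjusted p = 0.90).

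**Figure D4:**
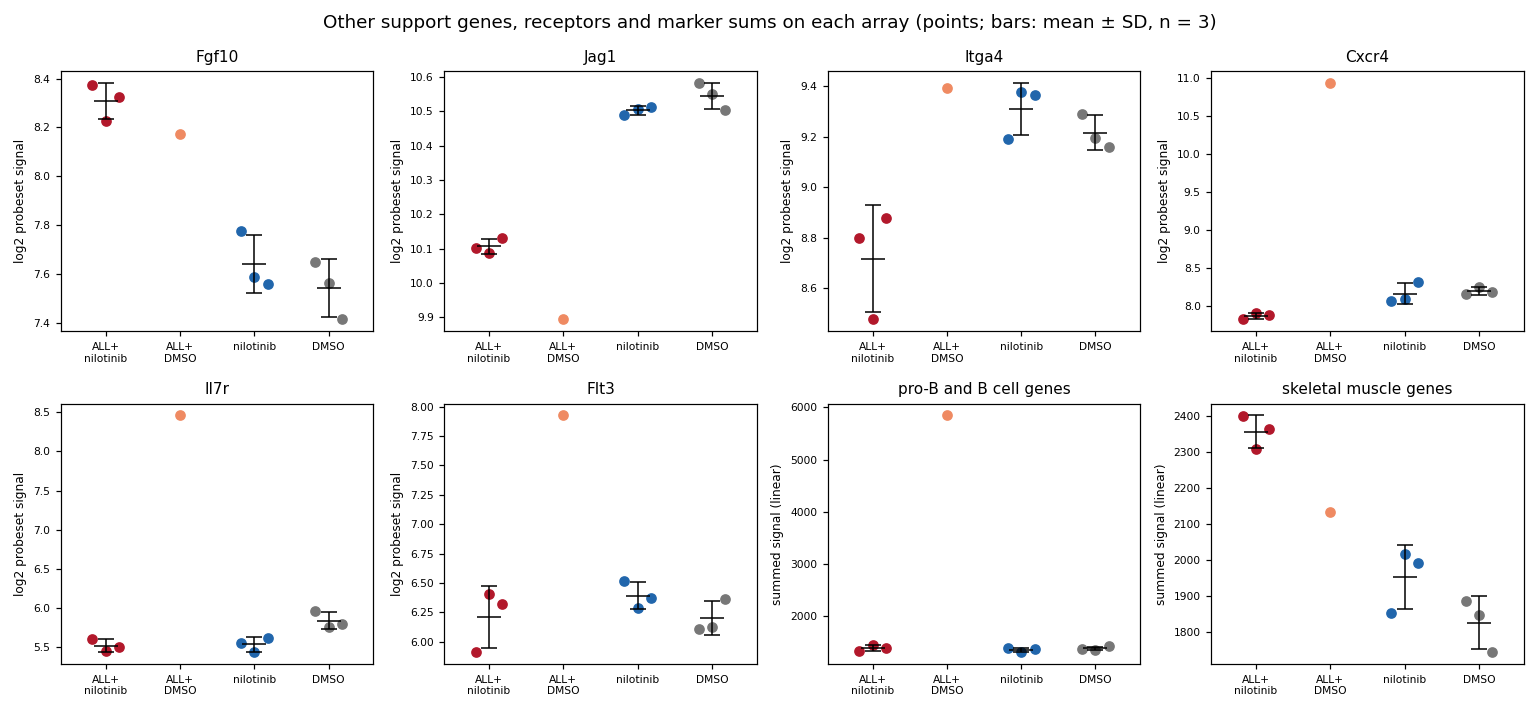
Log2 signal (y axis, a range of its own in each panel) of Fgf10, Jag1, Itga4, Cxcr4, Il7r and Flt3 on each array (points), and the summed linear signal of 14 pro-B and B cell genes and 8 skeletal muscle genes, by group (x axis) with mean ± SD for groups of 3. Cxcr4, Il7r, Flt3 and the pro-B sum stand out on the single MEFs + ALL + DMSO array, and Fgf10 and Jag1 separate the arrays with ALL cells from those without.

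The genes whose signals ran most like Fgf7 over the 9 arrays of the groups of 3 were Bzw2 (Pearson r = 0.994), Des (0.985) and Serpinb9b (0.983). Those most like Csf1 were Dtnbp1 (0.987), Dkk3 (0.983) and Ccdc102a (0.981). These are the highest of 19938 genes over 9 points that share the group structure, so they describe the arrays and carry no test. Des, which encodes the muscle filament protein desmin, was 0.90 higher in MEFs + ALL + nilotinib relative to MEFs + DMSO (log2, limma adjusted p = 0.014) and was the only one of 8 skeletal muscle markers to pass. The summed signal of these 8 markers, Des among them, moved with Fgf7, and its part in the result was not tested. It was 2310 to 2399 in MEFs + ALL + nilotinib, 2134 on the MEFs + ALL + DMSO array, 1853 to 2016 in MEFs + nilotinib and 1745 to 1888 in MEFs + DMSO. The list as a whole did not rise. For MEFs + ALL + nilotinib over MEFs + DMSO 3 of the 8 markers were higher and 5 lower, with a median log2 difference of -0.0235.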

How the data were processed

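RNA of 10 MEF samples was measured on Affymetrix arrays. The values are the log2 probeset signals that the authors deposited. The study names RMA and Partek (version not given in the sources used here), and the background correction was taken as deposited. The 35557 probesets had 0 missing values and array medians of 6.94 to 7.01. By the platform annotation 12147 of them name no gene, 1621 name several and 21789 name 1. The authors left out samples contaminated by ALL cells, which leaves MEFs + ALL + DMSO with 1 array.

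Group means of all 10 arrays were fitted with limma 3.58.1 in R 4.3.3 (lmFit, eBayes, shared spread). The Benjamini-Hochberg adjustment covered the full table of probesets, and 0.05 was the limit for a call. The fit was also run on simulated data as a check of the code. No recovery rate is given for differences of the size reported here. Exact permutation tests used scipy 1.17.1. Members, gene lists and tests were chosen with earlier results of these data known. All 10 members are described. From the wider list of support factors and the receptors, the genes that passed between groups of 3 arrays are named. Fgfr2 and Csf1r are named as receptors of the members that passed, and Kit as that of Kit ligand. The rest were chosen after their values were seen. They are Itga4, the lymphoid receptors that passed on the single array, and Lif and Tnfsf11, whose interaction passed. All other receptors were only counted. For each member that passed, the 3 genes with the highest Pearson r over 9 arrays were named. Alternatives were array weights, a trended robust fit, quantile normalization, median centring, a filter on the dimmest 25% of probesets, a replicate block, the compared groups alone, other references and scales, and each array left out. The number of arrays limits the precision.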

Additional observations from a re-analysis of the deposited data

Results flagged for a closer look

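In 5 genes of the wider lists the effect of ALL cells differed between nilotinib and DMSO in the limma interaction. The lists held 28 measured support factors and 15 measured receptors, and 3.95% of all probesets passed that interaction. Each of these results rests on the single MEFs + ALL + DMSO array. Cxcr4 had an interaction of -3.03, Il7r of -2.64 and Flt3 of -1.90 (log2; adjusted p = 9.88e-06, 2.13e-05 and 0.00228). Their log2 differences with ALL cells were -0.29, -0.018 and -0.18 under nilotinib, against 2.74, 2.62 and 1.72 under DMSO. Tnfsf11, which encodes RANK ligand, had an interaction of -1.04 (adjusted p = 0.00289), with differences of 0.056 under nilotinib and 1.10 under DMSO. Lif, which encodes leukemia inhibitory factor, had an interaction of 0.64 (adjusted p = 0.020), with differences of -0.30 under nilotinib and -0.94 under DMSO. Without MEFs + DMSO replicate 1 or 2 the Lif interaction was 0.63 or 0.61 and did not pass. The pro-B and B cell genes summed to 5847 on the MEFs + ALL + DMSO array, against at most 1458 on any other. Their part in the interactions was not tested.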

How the results depend on the processing

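The direction of Fgf7, Csf1, Fgf10 and Jag1 over MEFs + DMSO held under every alternative run, and their calls did not. Members passing for MEFs + ALL + nilotinib over MEFs + DMSO numbered 2, against 3 with array weights (Tslp the third), 1 after quantile normalization, 0 with the replicate block, 0 with the compared groups alone, and 0 to 2 with each array left out. Probesets passing there numbered 223, against 1263 with array weights, 476 with the trended fit, 421 without the dimmest 25%, 8 with the replicate block, 12 with the compared groups alone and 8 to 233 with arrays left out. Over MEFs + nilotinib 66 probesets passed, against 141, 117, 115, 12 and 4 under the same 5 settings and 12 to 66 with arrays left out, where members numbered 0 to 1. For MEFs + nilotinib over MEFs + DMSO leaving out arrays gave 0 to 1 members and 0 to 57 probesets, the highest without MEFs + nilotinib replicate 1. On the single MEFs + ALL + DMSO array 1 member passed over MEFs + DMSO, against 2 with array weights, 2 without the dimmest 25% (Tslp the second in both), 0 after quantile normalization, 0 after centring and 0 to 2 with arrays left out; probesets numbered 3651, against 6615 with array weights and 2137 to 4968. MEFs + ALL + nilotinib over MEFs + ALL + DMSO passed in 1543 probesets, 535 with the compared groups alone and 1178 to 1540 with arrays left out. The interaction passed in 1406, 2323 with array weights and 1008 to 1932, with 0 to 1 members. The causes were not tested.

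Differences near 0 changed sign: Cxcl12 over MEFs + DMSO with quantile normalization (-0.018), Flt3l there with array weights (0.035) and centring (0.013), Tnfsf13b for MEFs + nilotinib over MEFs + DMSO with quantile normalization (0.0059) and centring (0.0071), and the interactions of Il7 and Il15 with array weights (0.048 and 0.013) and of Fgf7 with quantile normalization (0.019). With arrays left out, sign changes came in Flt3l (-0.083 to 0.036) and Il15 (-0.21 to 0.035) for MEFs + ALL + nilotinib over MEFs + DMSO, Il7 over MEFs + nilotinib (-0.11 to 0.19), Il7 (-0.050 to 0.22) and Il15 (-0.0097 to 0.23) over MEFs + ALL + DMSO, Tnfsf13b for MEFs + nilotinib over MEFs + DMSO (-0.11 to 0.064), and the interactions of Cxcl12 (-0.015 to 0.052), Flt3l (-0.036 to 0.083), Il7 (-0.20 to 0.099), Il15 (-0.21 to 0.034) and Kitl (-0.093 to 0.15).

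Replicate numbers were checked for pairing: deviations of same-numbered arrays correlated between -0.29 and 0.24, above 0.1 in 2 of 9 pairs. Those of differently numbered arrays correlated between -0.26 and 0.39, above 0.1 in 7 of 18 pairs. Same-numbered arrays were thus not more alike. The check cannot decide whether they shared a batch, because deviations within a group cancel out. The mean over several probesets of a member was not run, because each member has 1.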
